A study of Homo sapiens with 10 samples.

Results

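Genes grouped as negative feedback on TGF-β signalling, meaning inhibitors that the pathway can induce, were examined for called binding sites in lung cancer cell lines. The sites were those of 3 transcription factors, Smad3, Smad4 and TTF-1. Only peak lists were used, so whether TGF-β induces each gene in these cells was not tested. The set holds 7 genes, SMAD7, SMAD6, SKIL, SKI, PMEPA1, BAMBI and TGIF1. Each was represented by a fixed window of the hg18 genome build, 70 to 140 kb long and 770 kb in all, and every called peak that shared at least 1 bp with a window was taken. This gave 79 of the 79601 peaks in the 7 called lists. The rule for membership names genes and positions and uses no peak value, but the genes and windows were picked with earlier results of these data known. An annotation of hg18 was not used here, so peaks are given by position and not as promoter, exon or intron.

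The data are from chromatin immunoprecipitation with sequencing (ChIP-seq), which maps where a protein sits on DNA. H441 is a lung adenocarcinoma line with TTF-1, the lineage transcription factor of lung epithelium also called NKX2-1, and A549 is a lung adenocarcinoma line without it. The libraries were Smad3 after siTTF-1 (an siRNA that depletes TTF-1) and after siControl, Smad4 after siTTF-1 and after siControl, and TTF-1 at 1.5 h and 0 h, all in H441, and Smad3 in A549. Per the labels, cells received 1 ng/ml TGF-β3 for 1.5 h. The same statement is attached to the TTF-1 0 h library, so that 0 h means untreated rests on its title alone. The TTF-1 libraries carry no siRNA in their titles, so TTF-1 that remained after siTTF-1 was not measured. There was 1 library per condition. No difference between conditions could therefore be set against replicate spread, and no test between conditions was made.

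The whole lists held 14145 Smad3 siTTF-1 peaks, 8941 Smad3 siControl peaks, 1605 Smad4 siTTF-1 peaks, 1 Smad4 siControl peak, 21291 TTF-1 1.5 h peaks, 31083 TTF-1 0 h peaks and 2535 A549 Smad3 peaks. Peaks had passed false discovery rate limits of 1% in the H441 Smad3 and TTF-1 lists, 10% in the Smad4 lists and 5% in the A549 list, so lengths of lists with different limits are not comparable. Each peak carries a number from 1 to the length of its list, and no label or header says what orders it. The number is used below only to say where a peak stands in its list. Depth is unknown from peak lists, and a missing peak means only that none was called.

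TGF-β receptors phosphorylate Smad2 and Smad3, which join Smad4 and bind target genes. Many of the genes that are induced early by the pathway encode its own inhibitors, which limit how strong and how long the response is. SMAD7 and SMAD6 are inhibitory Smads: SMAD7 acts at the TGF-β receptor and SMAD6 mainly restrains the related BMP pathway. SKIL (its protein is SnoN) and SKI are co-repressors that bind the Smad complex on DNA. PMEPA1 is a membrane protein that binds receptor-activated Smads, BAMBI is a pseudoreceptor without a kinase domain, and TGIF1 is a homeodomain repressor that binds Smad2 and Smad3.

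Smad proteins bind short sequences, of which CAGAC is the core element, read on the other strand as GTCTG. The palindrome GTCTAGAC is a strong site. The 250 bases before 1 annotated start of each of 4 genes are shown with these letters in capitals. For SMAD7 the first of 3 listed starts is shown, with 2 CAGAC elements, and starts 2 and 3 had 1 and 0. SMAD7 and SKIL stand for windows with many Smad3 peaks in H441, and SMAD6 and BAMBI for windows with few or none. They are RefSeq sequences on GRCh38.p14, 5′ to 3′ on the gene's own strand. That build is not the one of the peaks, so whether a peak covers them was not determined.
SMAD7, chr18:48950966-48951215, minus strand: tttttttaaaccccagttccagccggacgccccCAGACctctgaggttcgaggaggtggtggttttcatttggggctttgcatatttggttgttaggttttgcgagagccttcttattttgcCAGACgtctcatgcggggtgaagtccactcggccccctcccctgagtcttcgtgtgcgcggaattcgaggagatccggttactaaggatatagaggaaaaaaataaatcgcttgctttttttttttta
SKIL, chr3:170357465-170357714, plus strand: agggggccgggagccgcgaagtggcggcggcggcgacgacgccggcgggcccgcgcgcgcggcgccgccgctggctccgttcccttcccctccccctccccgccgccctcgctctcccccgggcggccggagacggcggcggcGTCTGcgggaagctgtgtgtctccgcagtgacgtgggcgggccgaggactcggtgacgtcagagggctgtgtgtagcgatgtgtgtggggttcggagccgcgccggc
SMAD6, chr15:66701986-66702235, plus strand: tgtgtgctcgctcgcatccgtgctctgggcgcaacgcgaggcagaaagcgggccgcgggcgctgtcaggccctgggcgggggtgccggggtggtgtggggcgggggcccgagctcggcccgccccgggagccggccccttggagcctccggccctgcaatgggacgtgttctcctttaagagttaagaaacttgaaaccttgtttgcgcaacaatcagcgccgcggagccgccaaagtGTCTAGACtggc
BAMBI, chr10:28677271-28677520, plus strand: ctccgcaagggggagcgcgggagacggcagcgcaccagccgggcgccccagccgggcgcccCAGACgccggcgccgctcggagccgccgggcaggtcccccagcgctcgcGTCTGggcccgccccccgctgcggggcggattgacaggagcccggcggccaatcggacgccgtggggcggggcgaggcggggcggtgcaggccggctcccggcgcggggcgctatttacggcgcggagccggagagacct

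The table of promoters matched 6 of the 7 genes, all but SKI, with 17 start sites between them, of which the windows before 2 TGIF1 starts overlap. GTCTAGAC was found before 1 of these start sites, that of SMAD6, where its first base lies 12 bases before the start. Over all genes, 64 of 35114 sequences of the same length held it (0.182%). CAGAC on either strand was found before 10 of the 17 start sites, against 38.0% of all sequences. Start sites of 1 gene are not independent. Counting a gene with CAGAC before any of its starts, 5 of the 6 genes had it, all but SMAD6. The share of sequences is no background for that count of genes, because genes differ in their number of starts. The motifs were searched on both strands, and no start site of these genes held both. Whether motifs go with peaks was not tested. The motifs were counted just before start sites, and the peaks anywhere in much longer windows on another genome build. SMAD6, with the palindrome, had 1 called Smad3 peak in H441, after siTTF-1, and 1 in A549. BAMBI, with 2 CAGAC elements, had none in H441 and 1 in A549.

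Smad3 binding in H441 was concentrated at SMAD7, PMEPA1 and SKIL. After siTTF-1, the SMAD7 window held 11 Smad3 peaks, against 7 after siControl. PMEPA1 held 6 after siTTF-1 and 4 after siControl, and SKIL held 6 after siTTF-1 and 3 after siControl. SMAD6, SKI and TGIF1 held 1 Smad3 peak each after siTTF-1 and none after siControl, and BAMBI held none in either. Smad4 siTTF-1 peaks numbered 3 at PMEPA1, 2 at SKIL and 1 at SMAD7, and the other 4 windows had none. No window held the only Smad4 siControl peak. In A549 cells Smad3 had 4 peaks at PMEPA1, 2 at SMAD7 and 1 each at SKIL, SMAD6, SKI and BAMBI, and none at TGIF1. SMAD7, SKIL and PMEPA1 shared the same pattern of lists with and without a peak over the 7 lists, and no other 2 genes did.

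**Figure D1:**
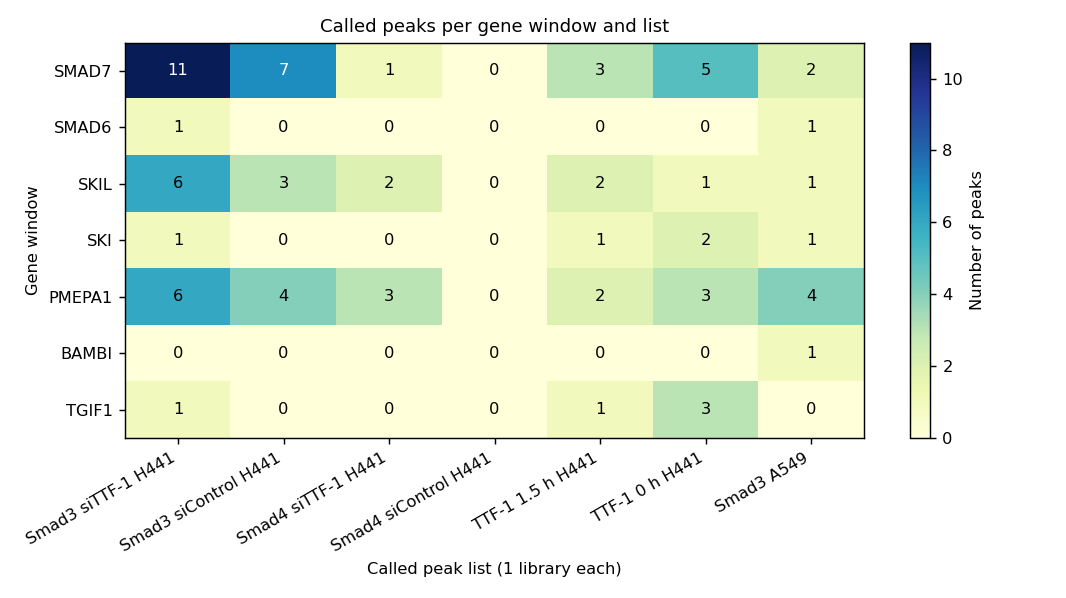
Number of called peaks in each gene window (rows) in each list (columns, 1 library each). SMAD7, SKIL and PMEPA1 have peaks in 6 of the 7 lists, and BAMBI only the 1 A549 Smad3 peak.

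As background, the genome was cut into 30284 tiles of 100 kb up to the last peak of each chromosome. The tiles have fixed edges and were cut without regard to genes. The windows were drawn around genes picked with earlier results of these data known. The shares of tiles below are therefore descriptions and not chances. A Smad3 siTTF-1 peak was present in 6 of the 7 windows and in 25.4% of tiles, and a Smad3 siControl peak in 3 windows and in 18.0% of tiles. Smad4 siTTF-1 peaks were present in 3 windows and in 4.66% of tiles, and A549 Smad3 peaks in 6 windows and in 5.93% of tiles. TTF-1 peaks were present in 5 windows at either time, and in 34.6% of tiles at 1.5 h and 42.7% at 0 h. The Smad4 siControl list reached 1 tile (0.00330%). Per Mb, the windows held 33.8 Smad3 siTTF-1 peaks against 4.67 over the whole span, and 18.2 Smad3 siControl peaks against 2.95. For TTF-1 the windows and the whole span lay closer together, at 11.7 and 7.03 peaks per Mb at 1.5 h, and at 18.2 and 10.3 at 0 h. Of 33646 tiles as long as the SMAD7 window (90 kb), 8 held at least 11 Smad3 siTTF-1 peaks (0.0238%) and 28 at least 7 siControl peaks (0.0832%). At least 4 A549 Smad3 peaks, the count at PMEPA1, were held by 67 of 25233 tiles of its length (0.266%), and at least 3 Smad4 siTTF-1 peaks by 36 (0.143%). The single Smad3 siTTF-1 peaks at SMAD6, SKI and TGIF1 are no more than many tiles hold: 31.9% of 140 kb tiles and 27.2% of 110 kb tiles had at least 1. Without SMAD7 the windows held 15 Smad3 siTTF-1 peaks and 7 siControl peaks, so SMAD7 supplied 11 of the 26 and 7 of the 14.

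**Figure D2:**
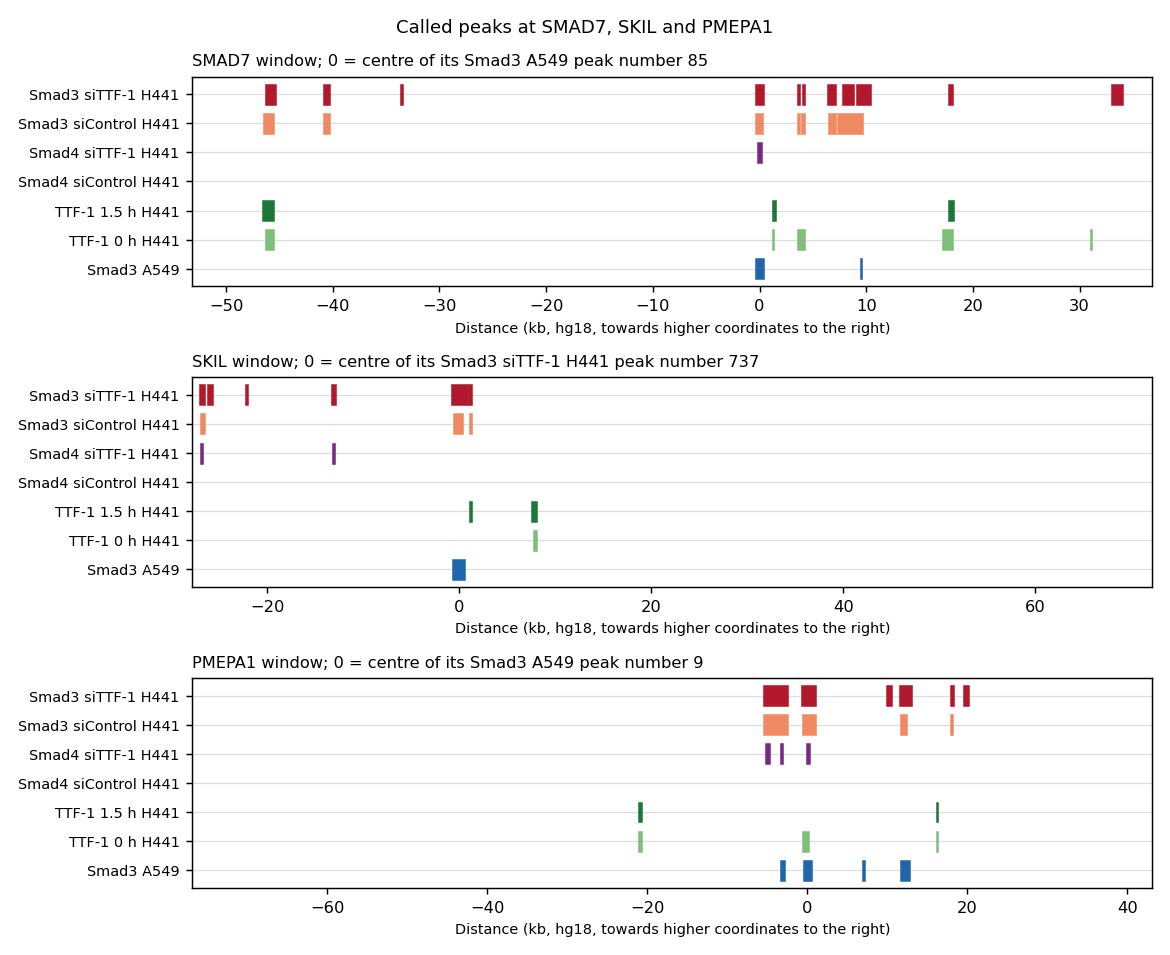
Called peaks along the windows of SMAD7, SKIL and PMEPA1, 1 row per list, with boxes to scale and the horizontal axis in kb from the centre of the peak that stands earliest in its own list. Smad3 peaks recur at the same places after siTTF-1 and siControl, and most have no TTF-1 peak above or below them.

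Every Smad3 peak of siControl cells in these windows was still called after TTF-1 depletion, though with few peaks the share cannot be told from that of the whole list. A siControl peak that meets a siTTF-1 peak is called kept here, and a siTTF-1 peak without a siControl counterpart is called gained. Of the 14 siControl peaks, 14 were kept (exact binomial 95% interval 76.8 to 100%), against 80.8% of the whole siControl list, a value that the interval holds. The deposited list of siControl peaks lost after siTTF-1, with 1718 peaks, had none in the windows. The 1 bp rule recovers that list in full, so this restates the kept count and adds nothing to it. In the windows 11 of the 26 siTTF-1 peaks were gained (42.3%, 23.4 to 63.1), against 49.1% of the whole siTTF-1 list. The interval holds the value of the whole list, so the windows showed no excess of gained peaks. With the siTTF-1 list shortened to the siControl length, 5 of 18 were gained (27.8%), against 33.5% of the shortened list. Intervals cover counting error only, and peaks of 1 locus are not independent. When the windows were widened by 50 kb on either side, 20 of 24 siControl peaks were kept (83.3%), a share near that of the whole list. In the windows as drawn, the siTTF-1 list at the siControl length kept 13 of 14, against 67.1% of the whole list. Centres within 200 bp also gave 13 of 14, against 74.7%, and the first 50% of each list gave 9 of 10, against 78.4%. The absence of lost peaks thus depended on the windows, the list length and the overlap rule.

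Smad3 sites at these genes mostly lacked TTF-1, whereas most Smad3 sites in the whole lists had it. After siTTF-1, 4 of the 26 Smad3 peaks met a TTF-1 1.5 h peak (15.4%, 4.36 to 34.9), against 54.1% of the whole list. After siControl, 2 of 14 did (14.3%, 1.78 to 42.8), against 82.2%. With the TTF-1 0 h list the windows gave 6 of 26 after siTTF-1 (23.1%, 8.97 to 43.6), against 62.5%, and 4 of 14 after siControl (28.6%, 8.39 to 58.1), against 87.7%. The difference was seen among the kept peaks. Of 15 kept siTTF-1 peaks, 2 had TTF-1 at 1.5 h (13.3%, 1.66 to 40.5) and 4 at 0 h (26.7%, 7.79 to 55.1), against 80.9% and 86.7% of all kept siTTF-1 peaks. Among the 11 gained peaks 2 had TTF-1 at 1.5 h (18.2%, 2.28 to 51.8) and 2 at 0 h, against 26.4% and 37.5% of all gained peaks, and those intervals hold the values of the whole list. The median distance between a Smad3 centre and the closest TTF-1 1.5 h centre was 5737.5 bp for siTTF-1 peaks in the windows, against 300 bp over that list. For siControl peaks it was 3462.5 bp in the windows, against 75 bp over the list. In windows widened by 50 kb, 9 of 24 siControl peaks had TTF-1 1.5 h (37.5%), which is more than in the windows as drawn and still below the whole list.

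**Figure D3:**
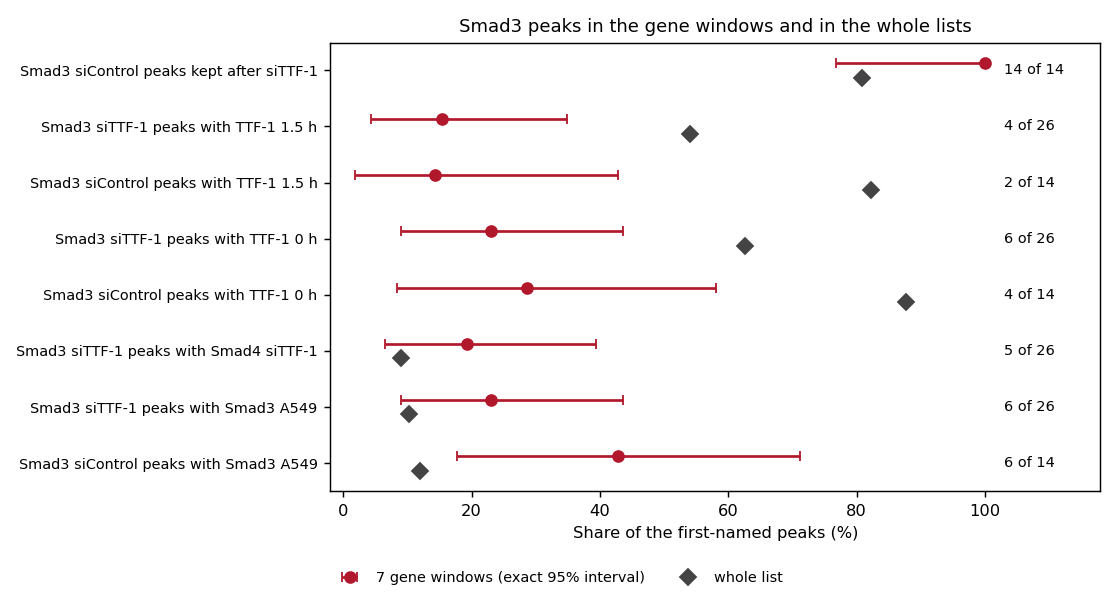
Share of Smad3 peaks (horizontal axis, %) that were kept or that met a TTF-1, Smad4 or A549 peak, for the 7 gene windows (circles, exact 95% intervals, with counts at the right) and for the whole list (diamonds). The TTF-1 shares of the windows lie between 14.3% and 28.6%, and those of the whole lists between 54.1% and 87.7%.

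Smad3 peaks at these genes met Smad4 and A549 peaks in larger shares than the whole lists did, though most of the intervals are wide. Of the 26 Smad3 siTTF-1 peaks, 5 met a Smad4 siTTF-1 peak (19.2%, 6.55 to 39.4), against 9.06% of the list. Of the 14 siControl peaks 4 did (28.6%, 8.39 to 58.1), against 10.1%. Both intervals hold the value of their list. When at least 50% of a peak had to be covered 2 of 26 met Smad4 (7.69%), against 1.96% of the list. All 6 Smad4 siTTF-1 peaks lay at a Smad3 siTTF-1 peak (54.1 to 100%), against 80.5% of the Smad4 list. A549 Smad3 peaks met 6 of the 26 siTTF-1 peaks (23.1%, 8.97 to 43.6), against 10.3%, and 6 of the 14 siControl peaks (42.9%, 17.7 to 71.1), against 11.9%. The interval of the siTTF-1 share holds its list value, and that of the siControl share lies above it. This did not last under stricter overlap: with at least 50% of a peak covered, or with centres within 200 bp, 4 of 14 siControl peaks met A549 (28.6%, 8.39 to 58.1), and the interval holds the list values of 10.1% and 9.55%. With the first 50% of each list 3 of 10 did. Seen from A549, 6 of its 10 peaks met a Smad3 peak after siTTF-1 and the same number after siControl (exact interval 26.2 to 87.8% each), against 58.2% and 42.5% of the A549 list, and the interval holds both. PMEPA1 supplied 3 of the 6 shared siControl peaks, which leaves 3 of 10 siControl peaks without that gene. The lists differ in cell line and in false discovery rate limit, so the lines cannot be compared by the number of peaks.

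At SMAD7 on chromosome 18, Smad3 peaks spanned 80.4 kb after siTTF-1 and 56.2 kb after siControl. The site called in the most Smad lists was 44722751 to 44723599. It stood at number 2054 in Smad3 siTTF-1, 1960 in Smad3 siControl, 217 in Smad4 siTTF-1 and 85 in A549 Smad3, and had no TTF-1 peak. The nearest TTF-1 peaks, a narrow pair at 44724301 with number 18891 at 1.5 h and 30151 at 0 h, had their centres 1350 bp and 1250 bp from the siTTF-1 Smad3 centre. They stand near the end of their lists.

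The SMAD7 site with the lowest Smad3 number in H441 was another, at 44676551 to 44677849. It had number 1092 after siTTF-1 and 1514 after siControl, with TTF-1 at number 2845 at 1.5 h and 15342 at 0 h, and no Smad4 or A549 peak. Here Smad3 and TTF-1 shared a place: the siTTF-1 Smad3 centre lay 200 bp from the 1.5 h TTF-1 centre and the siControl centre 50 bp. A second site at 44682301 held Smad3 alone, at number 3542 after siTTF-1 and 2968 after siControl. At 44726701 to 44727399 a TTF-1 0 h peak, number 11704, bridged a pair of narrow Smad3 peaks. The first of them had number 5165 after siTTF-1 and 4766 after siControl, and the second 10902 after siTTF-1 and 3662 after siControl. No TTF-1 1.5 h peak was called there.

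Between 44729501 and 44733649 the SMAD7 window held broad Smad3 peaks without TTF-1. After siControl it was called as a 799 bp peak at number 6390 and a 2449 bp peak at number 3473. After siTTF-1 the first was 849 bp at number 6504, and the second was met by a 1149 bp peak at number 12581 and a 1449 bp peak at number 2864. The last of these and a 249 bp A549 peak at number 1980 lay over the same bases. Gained peaks at SMAD7 were 44689451 to 44689799 at number 11726, 44740851 to 44741349 at number 13973 and 44756101 to 44757249 at number 4922. Only the second met TTF-1, at number 10567 at 1.5 h and 11230 at 0 h.

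At PMEPA1 on chromosome 20, the site at 55706101 to 55707999 had the lowest A549 number of all 7 genes. It stood at number 747 in Smad3 siTTF-1, 1686 in Smad3 siControl, 70 in Smad4 siTTF-1 and 9 in A549 Smad3, so it stood in the first 0.355% of the A549 list. A TTF-1 peak was called there at 0 h, number 14230, and not at 1.5 h. It was the only site of the 7 genes with peaks in 5 lists. Beside it, a 3099 bp Smad3 peak at 55701351 to 55704449 was called with identical edges after siTTF-1, at number 391, and after siControl, at number 399. It enclosed Smad4 siTTF-1 peaks number 688 and 910 and A549 peak number 1557, and no TTF-1 peak. Its Smad3 numbers were the lowest in the windows in both conditions.

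Further along PMEPA1, 55718351 to 55719899 had number 5380 in Smad3 siTTF-1, 6840 in Smad3 siControl and 1850 in A549, and no TTF-1. A Smad3 peak at 55724651 to 55725149 had number 5556 after siTTF-1 and 4349 after siControl and was in no other list. The gained peaks were 55716701 to 55717449 at number 13533 and 55726301 to 55727049 at number 8079, both without TTF-1, Smad4 or A549. An A549 peak at 55713701 to 55714049, number 756, had no H441 counterpart. TTF-1 alone occupied 55685701 to 55686249, at number 5518 at 1.5 h and 2584 at 0 h, so the early TTF-1 site of this window was apart from Smad3.

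At SKIL on chromosome 3, the 3 kept Smad3 peaks all stood earlier in the list after siTTF-1. Of all kept peaks, 42.2% had the lower number after siTTF-1 and 67.9% stood earlier as a share of the list. With 3 peaks SKIL cannot be told from these shares. The site 171556901 to 171558699 had number 737 after siTTF-1, at 1799 bp, and 1744 after siControl, at 1049 bp, with A549 peak number 270 and no Smad4 or TTF-1 peak. The site 171530751 to 171531349 had number 899 after siTTF-1 and 3934 after siControl, with Smad4 siTTF-1 number 812. The third, 171558751 to 171559149, had number 2066 after siTTF-1 and 4838 after siControl, with TTF-1 number 9816 at 1.5 h and no TTF-1 peak at 0 h. In percent of the list these were 5.21, 6.36 and 14.6 after siTTF-1, and 19.5, 44.0 and 54.1 after siControl.

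SKIL also gained 3 Smad3 peaks after siTTF-1, at 171531501 (number 6797), 171535451 (number 2622) and 171544451 (number 4223), none with a TTF-1 peak. The second stood within the first 3.30% of all 6944 gained peaks by number, and the third within the first 9.43%. The third also had Smad4 siTTF-1 peak number 416, the only one of the 11 gained peaks with Smad4, against 5.54% of all gained peaks. Over the 7 genes, 3 of 11 gained peaks had a number up to 5000, 2 at SKIL and 1 at SMAD7, against 13.7% of all gained peaks. The exact interval of that share, 6.02 to 61.0%, holds the value of all gained peaks. The median number of the 11 was 11135, against 9640.5 for all gained peaks, and 6 of the 11 stood in the later 50% of all gained peaks. By place in the list the gained peaks of these genes could thus not be told from gained peaks at large.

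The shift to lower numbers at SKIL was not general. Over the 14 kept peaks, the siTTF-1 partner with the largest overlap had the lower number in 7, against 42.2% of all 7223 kept peaks. By gene this was 3 of 3 at SKIL, 3 of 4 at PMEPA1 and 1 of 7 at SMAD7. As a share of its list, the siTTF-1 partner stood earlier in 12 of 14, against 67.9% of all kept peaks, and the siTTF-1 list holds more peaks. The median ratio of the siTTF-1 to the siControl number was 0.423 at SKIL, 0.883 at PMEPA1 and 1.08 at SMAD7, against 1.16 over all kept peaks. The split siControl peak at SMAD7, number 3473, was paired here with number 12581, the siTTF-1 peak of larger overlap, and its other partner had the lower number 2864. Each locus has few peaks and each list 1 library, so these are descriptions of the lists.

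**Figure D4:**
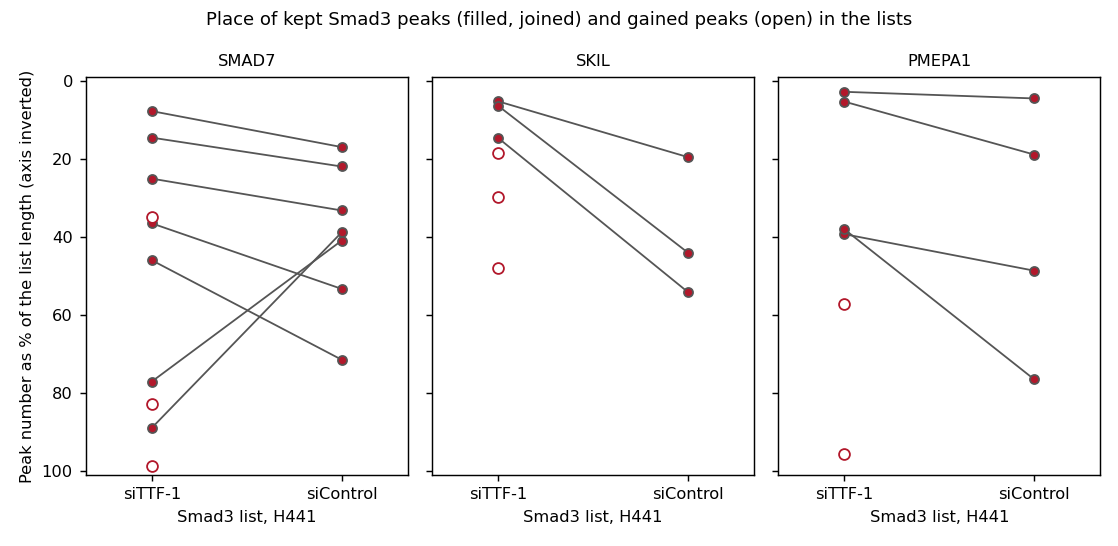
Peak number as percent of the list length (vertical axis, inverted, so early peaks are at the top) for Smad3 in H441 after siTTF-1 (left) and siControl (right), by gene. Lines join the 14 kept peaks, and open circles are gained peaks; the 3 SKIL lines all slope towards later places in siControl, and 2 SMAD7 lines run the other way.

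SMAD6, SKI, BAMBI and TGIF1 had no Smad3 siControl peak. SMAD6 on chromosome 15 had 1 gained Smad3 peak at 64831101 to 64831499, number 11135, and 1 A549 peak at 64844951 to 64845849, number 257, which stood in the first 10.1% of its list. SKI on chromosome 1 had a gained Smad3 peak at 2177001 to 2177649, number 11956, and an A549 peak at 2155551 to 2156449, number 470. In neither gene did the H441 and A549 peaks overlap. BAMBI on chromosome 10 had 1 A549 peak, 28997501 to 28998099, at number 2494 of 2535 and so near the end of its list. With the PMEPA1 peak at 55713701, 4 of the 10 A549 peaks had no H441 peak of any list, in 4 different genes (exact interval 12.2 to 73.8%), against 34.5% of all A549 peaks, which the interval holds. TGIF1 on chromosome 18 had a gained Smad3 peak at 3402651 to 3402949, number 11894, that lay on TTF-1 peaks number 6204 at 1.5 h and 4155 at 0 h. All 3 gained peaks of SMAD6, SKI and TGIF1 were beyond the first 8941 of the siTTF-1 list, so with that list shortened to the siControl length only SMAD7, SKIL and PMEPA1 had Smad3 in H441.

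**Figure D5:**
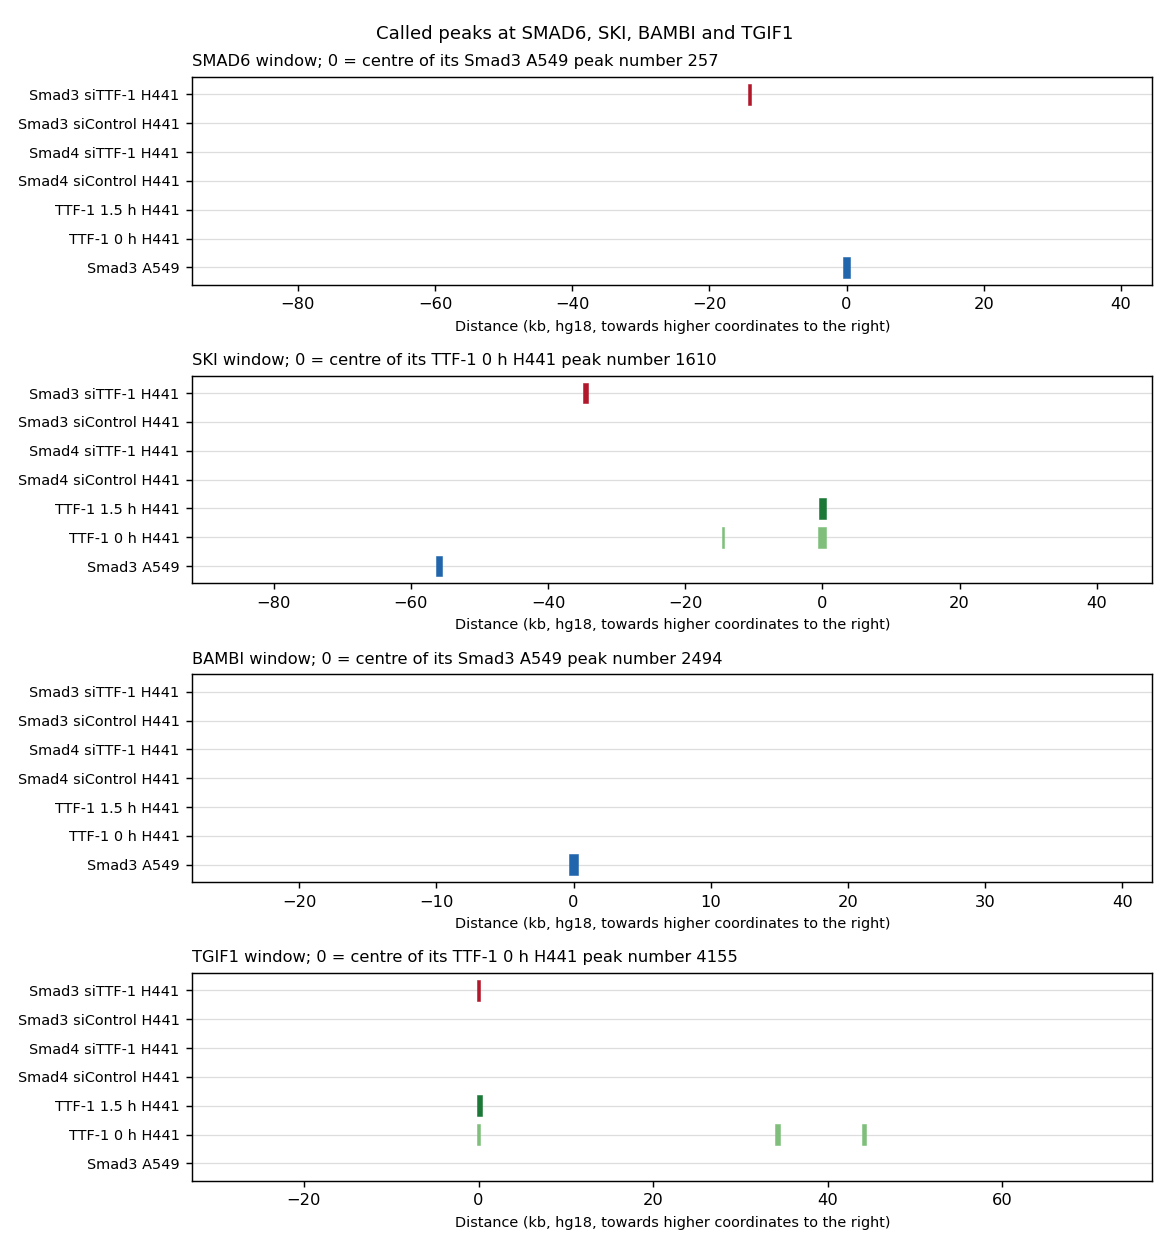
Called peaks along the windows of SMAD6, SKI, BAMBI and TGIF1, drawn as for the other genes, with the horizontal axis in kb from the centre of the peak that stands earliest in its own list. Peaks of different lists coincide only at 1 place in SKI, with TTF-1 at both times, and at 1 place in TGIF1, with Smad3 siTTF-1 and TTF-1 at both times.

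TTF-1 itself had 9 peaks in the windows at 1.5 h and 14 at 0 h. Of the 14 peaks at 0 h, 8 were called again at 1.5 h (57.1%, 28.9 to 82.3), against 65.3% of the whole list, and 8 of the 9 peaks at 1.5 h were called at 0 h (88.9%, 51.8 to 99.7), against 95.8%. Both intervals hold the values of the whole lists. The exception at 1.5 h was the SKIL peak on Smad3. The lowest TTF-1 number at 1.5 h was 2845, at the SMAD7 site shared with Smad3. At 0 h it was 1610, at SKI, where the peak at 2211301 to 2212449 had number 3149 at 1.5 h and no Smad3 peak. Smad3 siTTF-1 peaks met 4 of the 9 TTF-1 1.5 h peaks (44.4%, 13.7 to 78.8), against 35.9% of the list, and siControl peaks met 2 of 9 (22.2%, 2.81 to 60%), against 34.3%. At 0 h these were 5 of 14 after siTTF-1 (35.7%, 12.8 to 64.9), against 28.5%, and 3 of 14 after siControl (21.4%, 4.66 to 50.8), against 25.1%. All 4 intervals hold the value of the list. At SKI and TGIF1 TTF-1 had 2 and 3 peaks at 0 h and 1 each at 1.5 h, beside 1 Smad3 siTTF-1 peak each. At 0 h, 32.9% of 140 kb tiles held at least 2 TTF-1 peaks and 16.5% of 110 kb tiles at least 3. At 1.5 h, 42.0% and 36.7% of these tiles held at least 1, so the TTF-1 counts are no more than many tiles hold.

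When overlapping peaks of all lists were joined, the 79 peaks formed 37 sites. Of these, 22 held a Smad peak without TTF-1, 6 held both and 9 held TTF-1 without a Smad, against 16.5%, 28.2% and 55.4% of the 37950 sites joined in the same way over the whole lists. The 22 include 4 sites called in A549 alone, a line in which TTF-1 was not mapped, and such sites make up 2.31% of all joined sites. The split was 6, 3 and 2 at SMAD7, 6, 1 and 2 at PMEPA1, and 5, 1 and 1 at SKIL. Of the 37 sites, 8 had Smad3 siTTF-1 alone, in 5 genes, against 9.76% of all joined sites. That pool is unlike the windows, because 55.4% of it is TTF-1 without a Smad, against 9 of the 37. No excess of such sites is therefore read from the 8, nor from the 4 sites of A549 alone. The deposited lists that divide siTTF-1 Smad3 peaks by TTF-1 0 h hold 5298 peaks without TTF-1 and 8847 with it (62.5% of the siTTF-1 list). They placed 20 of the 26 peaks among those without TTF-1, in 5 genes. The other 6 were among those with it, at SMAD7, PMEPA1 and TGIF1. The 1 bp rule recovers both lists in full, so this restates the overlap with TTF-1 0 h given above. In RefSeq on GRCh38.p14 the nearest protein-coding neighbours are CTIF and DYM for SMAD7, LCTL and SMAD3 for SMAD6, and PRKCI and CLDN11 for SKIL. For SKI they are FAAP20 and MORN1, for PMEPA1 ZBP1 and CIMIP1, for BAMBI WAC and LYZL1, and for TGIF1 MYL12B and DLGAP1. Whether a window reaches a neighbour on hg18 was not determined, and a peak in a window is not thereby assigned to the gene that names it.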

How the data were processed

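ChIP-seq peak lists of 7 libraries were analysed, and 3 libraries labelled as input DNA for these experiments are not analysed here. Per the labels, the authors called peaks for each library at the false discovery rate limits given above; how the inputs entered the calling is not stated. Positions are on hg18, the build named in the submitters' processing notes. The sources used here name neither aligner nor caller. Each deposited list holds positions in steps of 50 bp, a peak number from 1 to the list length in the name column, and a deposited score of 1000 for every peak, which was not used. In all, 1 track line was skipped, and 1 was added to each start so that positions count from 1. Depth is unknown, so no detection limit was set.

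The genes, windows and lists were chosen with earlier results of these data known. All 7 genes are named, every site with a Smad peak may be given, and TTF-1 sites without a Smad by the lowest number per gene. Overlap needs 1 shared bp. Shares have exact Clopper-Pearson 95% intervals and stand beside the same share of the whole list, with no test. Alternatives were other overlap rules, stricter or merged lists, other windows and leaving out each gene. The 3 deposited subsets were recovered in full by the 1 bp rule. Other pathway genes, planned for counting, were not located without an annotation of hg18 and are not analysed here. Overlap counting was tested on simulated data, where 5 of 5 lists of 2000 peaks gave the true count and that of bedtools 2.31.1. Counting was done in Python 3.11.15 with NumPy 2.4.6, intervals with SciPy 1.17.1 and figures with matplotlib 3.10.9.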

Additional observations from a re-analysis of the deposited data

How the results depend on the processing

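Among 174 values recomputed under 9 alternatives, 158 stayed within the interval of the value in the windows or within 1.5 times a count, and 16 did not. Part of the 158 could not move, because the Smad4 siControl counts were always 0 and shortening the siTTF-1 list leaves the counts of the other lists unchanged. Many intervals are also wide, so this tally does not measure how stable the results are. With the wider 50% of each list, the windows held 16 Smad3 siTTF-1 peaks, 9 Smad3 siControl peaks, 2 TTF-1 1.5 h peaks in 2 windows and 6 TTF-1 0 h peaks in 3 windows. There 0 of 6 gained peaks had TTF-1 1.5 h, against 22.8% of all gained peaks at that setting. With the first 50% by peak number they held 17 Smad3 siTTF-1 peaks in 3 windows, 7 TTF-1 0 h peaks and 6 A549 peaks. With the siTTF-1 list at the siControl length, 3 windows had a Smad3 siTTF-1 peak. At that length 0 of 5 gained peaks had TTF-1 1.5 h, against 25.0% of all gained peaks. Counts of 0 among so few gained peaks do not set the windows apart from the lists. Windows widened by 50 kb held 24 Smad3 siControl peaks, 23 TTF-1 1.5 h peaks and 28 TTF-1 0 h peaks. Then SMAD6 had 2 siControl Smad3 peaks and BAMBI 1 TTF-1 peak at each time. Fewer or more peaks follow from these settings by construction.

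Leaving out each gene in turn gave 15 to 26 Smad3 siTTF-1, 7 to 14 Smad3 siControl, 3 to 6 Smad4 siTTF-1, 6 to 9 TTF-1 1.5 h, 9 to 14 TTF-1 0 h and 6 to 10 A549 peaks, and the Smad4 siControl count was 0 each time. The low ends came without SMAD7 for Smad3 and TTF-1 in H441 and without PMEPA1 for Smad4 and A549. The TTF-1 1.5 h share was 12 to 20% of siTTF-1 and 9.09 to 20% of siControl Smad3 peaks, and the gained share 40 to 53.3%. Against the whole list, the shares of kept peaks, of TTF-1 1.5 h and of Smad4 and A549 at Smad3 peaks stayed on the same side in all 16 alternatives each. This is no sign that an interval excludes the list value. Some alternatives could not move a share. SMAD6, SKI, BAMBI and TGIF1 held no siControl Smad3 peak, so leaving them out left the siControl shares as they were. Shortening the siTTF-1 list likewise cannot change the siControl shares with TTF-1 or A549. The gained share changed sides without SMAD7, and the share of TTF-1 0 h peaks called at 1.5 h with the first 50% of each list (71.4%) and in widened windows (75.0%). With CAGACA or GGCGCC as the motif, 4 or 3 of the 17 start sites had a match, against 13.6% or 16.4% of all sequences, and 11 had one with CAGAC or GTCTAGAC. No paired analysis was possible because each condition had 1 library.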
